A study of Homo sapiens with 6 samples.

Results

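Most histones are made from gene clusters that are copied into RNA only while DNA is replicated. The replication-independent histone variants are encoded by single genes outside these clusters. Here they are the 7 genes H2AX, H2AZ1, H2AZ2, H2AJ, H3-3A, H3-3B and H1-10, chosen by gene symbol. No measured value enters the rule, but it was written with earlier results of these data known. Each was found once among the 42495 gene rows of the expression table. Panc-1, a long-established line of human pancreatic carcinoma cells, was cultured for 72 h in medium conditioned by cancer-associated fibroblasts (CAFs), and rRNA-depleted RNA was sequenced from 3 samples of each group. The group CAFS-CM received medium of 1 CAF line from a platinum-sensitive patient and the group CAFR-CM medium of 1 CAF line from a platinum-resistant patient. With a single CAF line behind each medium, the tests set the difference against the variation among these 6 samples, and variation among CAF lines or donors was not sampled. The comparison asked how the RNA of Panc-1 differed between the media.

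Variant histones replace the canonical ones in particular places and at any time of the cell cycle. H2AX carries a serine near its tail end that is phosphorylated around DNA double-strand breaks to give γH2AX, the mark on which repair factors assemble. H2A.Z, made from H2AZ1 and H2AZ2, sits at promoters and enhancers. H3.3, made with the same amino acid sequence from H3-3A and H3-3B, is placed in transcribed genes and enhancers by the HIRA complex and in repeats by DAXX and ATRX. H2AJ encodes an H2A variant that has been linked to senescent and secretory epithelial cells, and H1-10 encodes a linker histone that binds DNA between nucleosomes.

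H2AX is unusual among these genes because its RNA can end in the stem-loop that replication-dependent histone RNAs carry in place of a poly(A) tail. The stem-loop motif, a pattern of 16 bases read on the transcript strand only, was found in the 3′ untranslated region of 1 of the 7 members, H2AX. It was found in 67 of 70 replication-dependent histone genes (95.7%) and in 79 of 19061 genes with a MANE Select transcript (0.414%). In H2AX it lies 50 to 65 bases after the stop codon, at chr11:119094898-119094913 on the minus strand of GRCh38 (GENCODE v44). It is shown because it sets H2AX apart in sequence, with capitals for the arms of the stem.
H2AX stem-loop: GGCCCTtttaAGGGCC

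The promoters were read from RefSeq (GRCh38.p14), where all 7 genes matched, as the 250 bases before the start of the MANE Select transcript. CCAAT, the letters bound by the factor NF-Y, was counted on both strands. It occurred 4 times in H2AX, H2AZ2 and H3-3B, 3 times in H2AZ1 and H2AJ, once in H3-3A and not in H1-10. At least 3 copies were present in 5 of 7 members, in 3.99% of 14473 genes and in 49.2% of 65 replication-dependent histone genes. TATAAA, also counted on both strands, was present in H2AX, H2AZ1, H3-3B and H1-10, starting 29 to 31 bases before the start. It was present in 9.10% of the 14473 genes and in 66.2% of the 65 histone genes. Patterns for the E2F factors were searched on both strands too. They were present in 1 of the 7 members, H1-10, in 15.3% of the 14473 genes and in 32.3% of the 65 histone genes. A match of letters is a description and not a bound site. The promoters of the gene with the largest change here (H2AX), of a gene of each of the other pairs that was lower (H2AZ1 and H3-3B) and of the one whose groups overlapped (H3-3A) are shown, with CCAAT and TATAAA on either strand in capitals.
H2AX, chr11:119095466-119095715, minus strand: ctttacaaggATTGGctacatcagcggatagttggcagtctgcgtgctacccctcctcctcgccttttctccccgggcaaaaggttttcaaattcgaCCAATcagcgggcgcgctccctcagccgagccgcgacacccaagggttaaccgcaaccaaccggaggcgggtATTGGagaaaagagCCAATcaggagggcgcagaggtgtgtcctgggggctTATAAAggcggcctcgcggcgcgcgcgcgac
H2AZ1, chr4:99950276-99950525, minus strand: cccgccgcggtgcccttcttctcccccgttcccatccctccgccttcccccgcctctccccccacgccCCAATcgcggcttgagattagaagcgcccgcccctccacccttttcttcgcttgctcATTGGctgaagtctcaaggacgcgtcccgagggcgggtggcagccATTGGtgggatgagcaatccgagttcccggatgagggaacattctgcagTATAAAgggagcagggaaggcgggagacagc
H3-3B, chr17:75779780-75780029, minus strand: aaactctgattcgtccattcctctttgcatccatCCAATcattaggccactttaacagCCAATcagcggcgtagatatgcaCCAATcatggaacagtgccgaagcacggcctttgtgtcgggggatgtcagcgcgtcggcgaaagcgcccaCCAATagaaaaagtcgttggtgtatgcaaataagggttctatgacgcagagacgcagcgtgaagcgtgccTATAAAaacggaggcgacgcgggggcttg
H3-3A, chr1:226062466-226062715, plus strand: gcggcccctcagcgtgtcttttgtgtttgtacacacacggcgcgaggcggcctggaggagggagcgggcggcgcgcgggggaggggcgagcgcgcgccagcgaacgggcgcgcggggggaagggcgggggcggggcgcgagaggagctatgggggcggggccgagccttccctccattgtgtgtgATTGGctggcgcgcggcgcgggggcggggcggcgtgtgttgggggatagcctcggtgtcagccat

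Levels were compared in the deposited unit, FPKM, which divides fragment numbers by the length of the transcript and by the size of the library. Differences are given on the log2(FPKM + 1) scale, CAFR-CM minus CAFS-CM, with a standard error and an adjusted p from limma, fitted over the 23608 genes that exceeded 0.1 FPKM in 3 samples or more. On this scale the change of low genes is understated. All 7 members passed this filter. FPKM hold no counts, so the depth per sample is not known. Among genes between 0.1 and 0.5 FPKM, the commonest ratio to CAFS-CM replicate 1 was 0.901 for CAFR-CM replicate 1 and 1 for each other library, but it held few of them (at least 3.63% and at most 8.0%), so relative depth was not settled. FPKM summed to 660604 to 701406 per sample. The epithelial keratin genes KRT8 and KRT18 were at 3057 to 3744 and 1843 to 2444 FPKM. Other epithelial markers were far lower, with KRT19 at 44.8 to 53.6, KRT7 at 4.63 to 6.27, CDH1 at 2.94 to 6.44 and EPCAM at 0.72 to 3.11 FPKM. The fibroblast gene FAP was listed at 0 in all 6 samples. The collagen genes COL1A1 and COL3A1, also fibroblast markers, were at 19.5 to 30.3 and 19.9 to 26.7 FPKM.

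In limma, 5 of the 7 variant histone genes passed an adjusted p of 0.05, all with lower levels after CAFR-CM (3 of 7 without any 1 of the CAFS-CM replicates, with no filter or with no trend). H2AX showed the largest difference, with 0.611 times the level, followed by H1-10 with 0.700 times. H2AZ1, H2AZ2 and H3-3B were at 0.836, 0.806 and 0.842 times. H2AJ did not pass the test, and H3-3A was at 1.03 times with groups that overlapped. Over all genes tested, 11.1% were lower and 15.1% higher, and among the 7406 genes with a mean of at least 10 FPKM, where 6 of the 7 members lie, 28.8% were lower. The share lower was thus larger at higher levels, and these 6 members lay above 90.3% to 99.2% of all genes tested. The share at their own levels was not computed. The groups did not overlap for 6 of the 7 members, all lower, beside 16.8% of all genes tested that were lower with no overlap. The median log2 fold change was -0.26 over the members, 0.06 over all genes tested and -0.05 over those of at least 10 FPKM. In bulk RNA, fewer cells of a kind and less RNA per cell cannot be told apart.

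**Figure D1:**
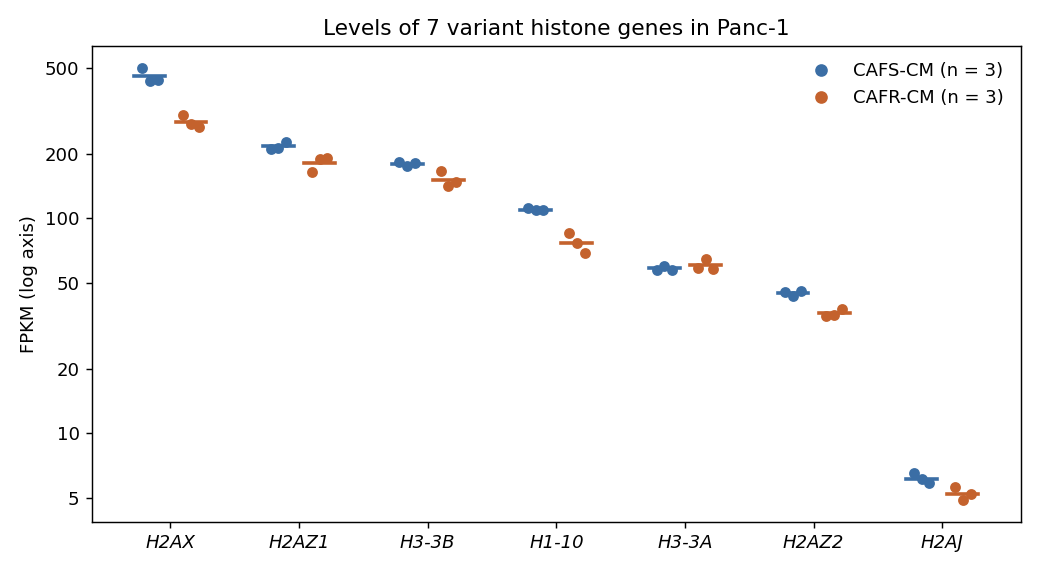
FPKM (log axis) of the 7 variant histone genes in each sample, ordered by mean level after CAFS-CM; points are samples, 3 per group, and lines are group means. The H2AX samples lie at 435 to 504 FPKM after CAFS-CM and at 266 to 302 after CAFR-CM, and the H3-3A samples of both groups overlap.

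The order of the mean levels was the same in both groups: H2AX, H2AZ1, H3-3B, H1-10, H3-3A, H2AZ2 and H2AJ. H2AX lay above 99.2% of all genes tested. Neighbours in this order did not overlap in their samples, except H2AZ1 and H3-3B after CAFR-CM, at 164 to 192 and 141 to 166 FPKM.

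H2AX (Entrez gene 3014) is a gene of 1 exon on the minus strand of chromosome 11 (GRCh38, 119093874 to 119095465). It was at 503.8, 435.0 and 439.9 FPKM after CAFS-CM and at 301.8, 273.9 and 266.5 FPKM after CAFR-CM. The highest CAFR-CM sample lay well below the lowest CAFS-CM sample. The means were 459.6 ± 38.4 and 280.7 ± 18.7 FPKM (SD, n = 3 per group), a log2 fold change of -0.71 ± 0.07 (SE; limma, adjusted p = 8.37e-04). It stayed between -0.76 and -0.59 over 13 alternative settings, with adjusted p-values of 4.02e-04 to 0.00440 (limma). Only 3.39% of its transcript lies in stretches of at least 50 bases that are identical in a transcript of another gene, so few reads could be shared. FPKM do not separate the stem-loop form of its RNA from the polyadenylated one.

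H2AX was lower relative to every other member after CAFR-CM. This direction follows from H2AX having the largest drop of the 7, and the 6 ratios share H2AX as numerator. They describe the size of the gaps and are not separate evidence. The same ratio to genes in general was not computed. Its FPKM was 7.86 ± 0.791 times that of H3-3A after CAFS-CM and 4.66 ± 0.465 times after CAFR-CM (SD, n = 3 per group). The log2 ratio of H2AX to each of the 6 other members differed, as CAFR-CM minus CAFS-CM, by -0.76 for H3-3A, -0.47 for H2AJ, -0.46 for H3-3B, -0.45 for H2AZ1, -0.40 for H2AZ2 and -0.19 for H1-10. The groups did not overlap in any of these 6 ratios. Each had an exact two-sided permutation p of 0.1, also after adjustment over the 6 pairs, which is the smallest that 3 against 3 samples allow. Of the summed FPKM of the 7 members, H2AX made up 42.7 ± 2.11% after CAFS-CM and 35.4 ± 1.39% after CAFR-CM (SD, n = 3 per group).

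**Figure D2:**
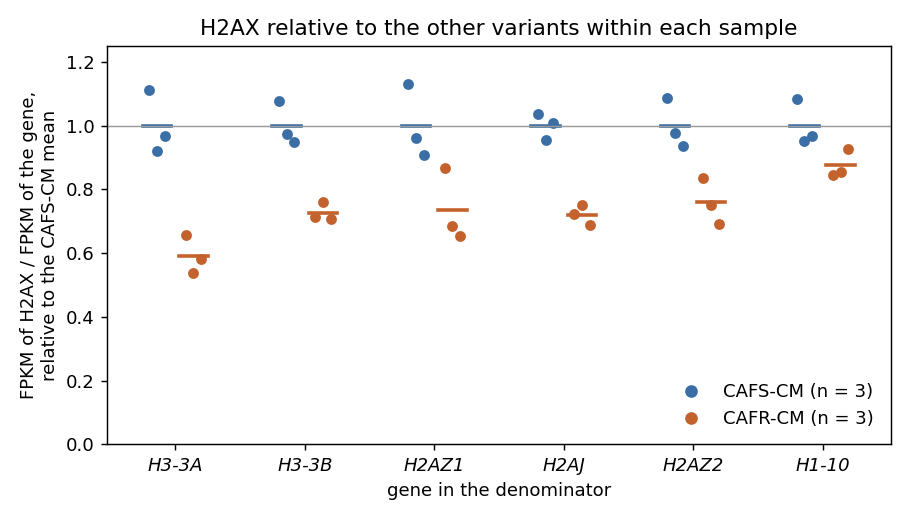
FPKM of H2AX divided by the FPKM of each other variant histone gene in the same sample, relative to the CAFS-CM mean of that ratio; points are samples, 3 per group, and lines are group means. Every CAFR-CM sample lies below every CAFS-CM sample for all 6 genes, with the smallest gap for H1-10, where the mean ratio after CAFR-CM was 0.876 times that after CAFS-CM.

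H1-10 (Entrez gene 8971, chromosome 3, from 129314771 to 129316286 on the minus strand, 1 exon) was the next in size. Its samples were at 111.4, 109.5 and 108.9 FPKM after CAFS-CM and at 85.4, 76.7 and 68.9 FPKM after CAFR-CM. The groups were far apart, and the CAFR-CM samples were more spread. The log2 fold change was -0.51 ± 0.07 (SE; limma, adjusted p = 0.00298). The antisense gene H1-10-AS1 covers 345 bases of its exon, but was at 0.44 FPKM at most.

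Both H2A.Z genes were lower. H2AZ1 (Entrez gene 3015, chromosome 4, 99948086 to 99950355, minus strand) was at 209.7, 213.0 and 227.7 FPKM after CAFS-CM and at 163.8, 188.5 and 191.8 FPKM after CAFR-CM, with a log2 fold change of -0.26 ± 0.07 (SE; limma, adjusted p = 0.0312). Its lowest sample was CAFR-CM replicate 1. H2AZ2 (Entrez gene 94239, chromosome 7, 44826791 to 44848087, minus strand) was at 45.3, 43.5 and 45.8 FPKM after CAFS-CM and at 35.2, 35.6 and 37.7 FPKM after CAFR-CM, with a log2 fold change of -0.30 ± 0.04 (SE; limma, adjusted p = 0.00248). Its samples lay close together in each group.

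H2AZ1 made up 82.8 ± 0.532% of the summed FPKM of H2AZ1 and H2AZ2 after CAFS-CM and 83.3 ± 0.929% after CAFR-CM (SD, n = 3 per group), and the groups overlapped. Their coding sequences are identical at 311 of 387 bases (80.4%). Of the H2AZ1 transcript, 18.2% lies in stretches of at least 50 bases that are identical in a transcript of another gene. For H2AZ2 the share is 18.4%, spread over 17 other genes. Among these, H2BC6 shares 2.05% of the H2AZ2 transcript and was at a mean of 399 FPKM. The call of H2AZ1 was less firm than that of H2AZ2. Its adjusted p (limma) was 0.0609, 0.0729 and 0.0996 without CAFS-CM replicate 1, 2 and 3, and 0.203 with cyclic loess scaling, where the log2 fold change was -0.14.

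Of the H3.3 genes, H3-3B was lower and H3-3A did not pass the test. H3-3B (Entrez gene 3021, chromosome 17, 75776434 to 75785893, minus strand) was at 183.1, 175.0 and 181.9 FPKM after CAFS-CM and at 165.9, 141.5 and 147.4 FPKM after CAFR-CM, with a log2 fold change of -0.25 ± 0.06 (SE; limma, adjusted p = 0.0253). The groups did not overlap, and CAFR-CM replicate 1 came nearest to CAFS-CM. H3-3A (Entrez gene 3020, chromosome 1, 226061851 to 226072019, plus strand) was at 57.6, 60.2 and 57.8 FPKM after CAFS-CM and at 58.6, 64.7 and 58.2 FPKM after CAFR-CM. The samples of both groups were mixed, with a log2 fold change of 0.05 (95% interval -0.07 to 0.16, adjusted p = 0.547 from limma). H3-3A thus made up 24.5 ± 0.913% of the summed FPKM of H3-3A and H3-3B after CAFS-CM and 28.6 ± 2.66% after CAFR-CM (SD, n = 3 per group), with no overlap between the groups. The margin was small, with 25.6% the highest share after CAFS-CM and 26.1% the lowest after CAFR-CM.

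The values of H3-3A are less certain than those of the other members. In its MANE Select transcript, 83.1% of the bases lie in stretches of at least 50 bases that are identical in transcripts of 13 other genes. One of them, the pseudogene H3P6, shares 38.4% of the transcript and was listed at 85.4, 88.9 and 92.2 FPKM after CAFS-CM and at 99.0, 87.4 and 94.4 FPKM after CAFR-CM, above H3-3A itself. How reads were divided between H3-3A and H3P6 is set by the authors' counting. The sum of both was 147 ± 3.79 and 154 ± 3.02 FPKM (SD, n = 3 per group), higher after CAFR-CM with no overlap between the groups. Of all genes tested, 26.4% were also higher with no overlap. Each gene alone had overlapping groups and did not pass (limma, adjusted p = 0.547 for H3-3A and 0.367 for H3P6). The sum was formed after the values of H3P6 were seen. H3-3B shares 19% of its transcript, with the gene H3-5 alone, which was at a mean of 0.025 FPKM. The call of H3-3B was lost without each CAFS-CM replicate and without CAFR-CM replicate 2 or 3 (adjusted p = 0.0543 to 0.0791 from limma). With cyclic loess scaling its log2 fold change was -0.14 (adjusted p = 0.177 from limma).

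H2AJ (Entrez gene 55766, chromosome 12, 14774405 to 14778002, plus strand) was the lowest of the members. It was at 6.52, 6.11 and 5.84 FPKM after CAFS-CM and at 5.61, 4.89 and 5.20 FPKM after CAFR-CM. Each CAFR-CM sample lay below each CAFS-CM sample by a small margin. The log2 fold change was -0.20 ± 0.07 (SE; limma, adjusted p = 0.0964). It passed the test only with cyclic loess scaling (log2 difference -0.29; limma, adjusted p = 0.0447).

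**Figure D3:**
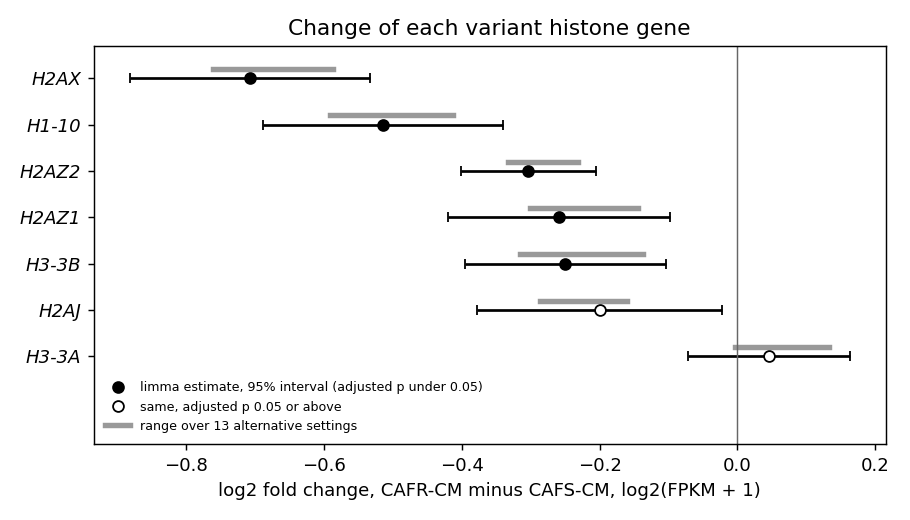
Log2 fold change (CAFR-CM minus CAFS-CM, on the log2(FPKM + 1) scale) of each variant histone gene, with its 95% interval from limma; filled points passed an adjusted p of 0.05, and grey bars span the 13 alternative settings. Every gene except H3-3A lies below 0 with all 13 settings, and the bar of H3-3A, from -0.0032 to 0.13, crosses 0.

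The replication-dependent histone genes, which share the stem-loop with H2AX, were lower as well. Of 61 tested, 38 were lower and none higher, with a median log2 fold change of -0.40, beside 11.1% lower over all genes tested and 28.8% over those of at least 10 FPKM. Their summed FPKM was 24621 ± 1684 after CAFS-CM and 17574 ± 804 after CAFR-CM (SD, n = 3 per group), 0.714 times. The 7 variants summed to 1076 ± 38.2 and 792.5 ± 21.2 FPKM, 0.737 times, and to 0.830 times without H2AX. They made up 4.19 ± 0.189% of both sets of histone RNA after CAFS-CM and 4.32 ± 0.114% after CAFR-CM (SD, n = 3 per group), with overlapping groups. Of 54 replication-dependent genes with a mean of at least 10 FPKM, 5 had a lower log2 fold change than H2AX. These were H1-3, H1-5, H2AC14, H3C12 and H3C14, the last at a log2 fold change of -1.95 with a standard error of 1.32. These genes resemble each other in sequence, so their single values are uncertain. H4C14 and H4C15 have the same values in the table.

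All 26 genes listed for DNA replication and proliferation were lower at an adjusted p under 0.05 (limma), at -0.76 to -0.17 on the log2 scale and with a median of -0.61 (23 to 24 of them without 1 library). The shares lower were 11.1% of all genes tested and 28.8% of those of at least 10 FPKM. Like the other lists, this one was chosen with earlier results of these data known. H2AX, at -0.71, lay within the range of the 26 genes, and 4 of them, MCM3, E2F1, CDT1 and FEN1, were below H2AX. E2F1, a transcription factor of the G1/S transition, was at 62.1 ± 2.13 and 36.7 ± 1.19 FPKM, and the helicase subunit gene MCM3 at 79.0 ± 0.537 and 47.4 ± 1.63 FPKM (SD, n = 3 per group). Whether fewer replicating cells account for part of the lower variant histone levels was not tested. SLBP, which encodes the protein that binds the histone stem-loop, fell by 0.32 on the log2 scale (adjusted p = 0.00233 from limma). ERI1, a nuclease that trims it, fell by 0.32 too (adjusted p = 0.0186, and 0.0682 and 0.0676 without CAFS-CM replicate 1 and 3). The other called members of the 12 processing factors tested included the cleavage factor gene CSTF2 and LSM10, a subunit of the U7 snRNP, and 5 of the 12 were lower in all (3 without CAFS-CM replicate 1 or 3), beside 28.8% of genes of at least 10 FPKM and 11.1% of all genes tested.

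**Figure D4:**
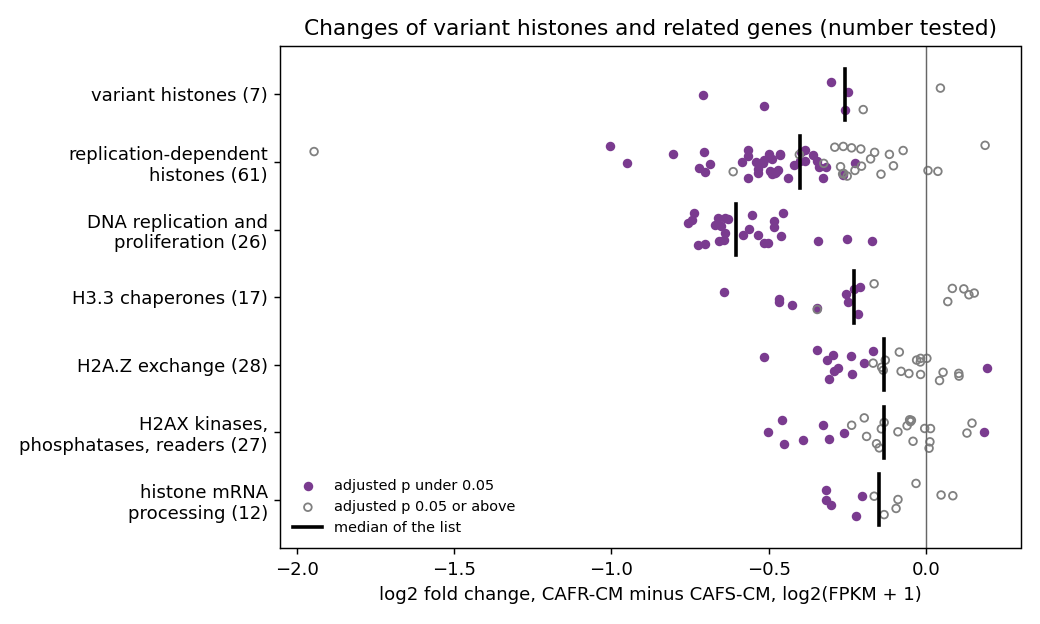
Log2 fold change (CAFR-CM minus CAFS-CM, on the log2(FPKM + 1) scale) of each tested gene in the variant histones and in 6 lists of related genes; filled points passed an adjusted p of 0.05 (limma), and black lines are list medians. All 26 replication and proliferation genes lie below 0, with a median of -0.61, and the variants have a median of -0.26. The H2AX list also holds genes of the wider damage response, and the H3.3 list general histone chaperones.

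Of 17 chaperones and other proteins listed as handling H3.3, 10 were lower and none higher, with a median log2 fold change of -0.23, beside 11.1% lower among all genes tested and 28.8% among those of at least 10 FPKM. HIRA, which brings H3.3 to transcribed genes, was at 13.4 ± 0.411 FPKM after CAFS-CM and at 11.4 ± 0.990 FPKM after CAFR-CM (SD, n = 3 per group; adjusted p = 0.0493 from limma). This call was lost without any library except CAFR-CM replicate 3 (adjusted p = 0.0865 to 0.141) and with the replicate block (adjusted p = 0.0890). It was also lost with no filter, equal FPKM totals and no trend (adjusted p = 0.0815, 0.0581 and 0.0657 from limma). DAXX, the H3.3 chaperone of repeats, fell by 0.25 on the log2 scale (adjusted p = 0.00677 from limma). ATRX, the remodeler that works with DAXX, had a log2 fold change of 0.14 and did not pass (adjusted p = 0.136 from limma). The 4 with the smallest adjusted p were MCM2, IPO4, DNAJC9 and DEK, at log2 fold changes of -0.64, -0.47, -0.47 and -0.35. MCM2 is a subunit of the replicative helicase that also binds histone H3, and it is in the list of replication genes too. IPO4 is an importin that carries histones into the nucleus, and DNAJC9 a histone H3 and H4 chaperone. MCM2, IPO4 and DNAJC9 are not particular to H3.3, so the count is not read as one about the placing of H3.3.

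Of 28 subunits and factors that load or remove H2A.Z, 11 were lower and 1 higher, with a median log2 fold change of -0.13 (7 lower without CAFS-CM replicate 3). Beside it stand 28.8% lower among genes of at least 10 FPKM and 11.1% among all genes tested, so nothing particular to the list is read from its count. SRCAP, the motor of a complex that exchanges H2A for H2A.Z, was at 40.2 ± 0.396 FPKM after CAFS-CM and at 31.4 ± 1.17 FPKM after CAFR-CM (SD, n = 3 per group; log2 difference -0.35; limma, adjusted p = 0.00116). EP400, the motor of the other such complex, fell by 0.24 (adjusted p = 0.00924 from limma). BRD8 and KAT5, subunits of that complex, fell by 0.52 and 0.30, and the shared subunit gene RUVBL2 by 0.28. ANP32E, which strips H2A.Z from chromatin, was at 21.13 ± 1.26 and 21.96 ± 0.998 FPKM, with overlapping groups (log2 difference 0.05; limma, adjusted p = 0.535). The gene higher was NAP1L1, a histone chaperone gene, at 0.19 (adjusted p = 0.0235 from limma), named after its value was seen. It was not called without CAFS-CM replicate 1 or 2 or CAFR-CM replicate 2 or 3 (adjusted p = 0.0605 to 0.0645).

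The H2AX list holds kinases, phosphatases, readers and exchangers of H2AX and genes of the wider damage response. Of its 27 genes tested, 7 were lower and 1 higher, with a median log2 fold change of -0.13. This count does not set the list apart from expressed genes, of which 28.8% were lower at a mean of at least 10 FPKM (11.1% of all genes tested). MDC1, the reader that binds γH2AX directly, was at 20.2 ± 0.696 FPKM after CAFS-CM and at 13.9 ± 0.320 FPKM after CAFR-CM (SD, n = 3 per group; log2 difference -0.50; limma, adjusted p = 4.78e-04). SUPT16H and SSRP1, the subunits of the chaperone FACT that exchanges H2AX, fell by 0.31 and 0.26. TOPBP1, a scaffold of the ATR kinase response, fell by 0.45. BRCA1, CHEK1 and CHEK2, also of the wider damage response, fell by 0.33, 0.46 and 0.39. Of the kinases that phosphorylate H2AX, PRKDC, the gene of DNA-PKcs, had a log2 fold change of -0.09 (adjusted p = 0.137 from limma). ATM was the gene higher, at 13.6 ± 0.757 and 15.6 ± 0.210 FPKM (log2 difference 0.18; limma, adjusted p = 0.0406). It lost this call without each of the 6 libraries (adjusted p = 0.0545 to 0.11 from limma) and with the replicate block (adjusted p = 0.0612). The call was also lost with no filter, equal FPKM totals and no trend (adjusted p = 0.0568, 0.135 and 0.0623 from limma). These are RNA levels. The phosphorylation of H2AX was not measured in these samples.

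Among other variant histone genes, 6 were tested, of which 2 were lower. The shares lower were 28.8% among genes of at least 10 FPKM and 11.1% among all genes tested. Of the 12 with values, 8 had a mean under 1 FPKM, so the first share is not a like comparison. H2AB2 and H2AB3, both among the 6, have the same fold change and adjusted p. Nothing is read from this count. MACROH2A1, an H2A variant with a large extra domain, was at 140 ± 6.46 and 114 ± 2.75 FPKM (SD, n = 3 per group; log2 difference -0.29; limma, adjusted p = 0.00345). CENPA, the centromeric H3 variant, whose gene is expressed before mitosis, was at 40.3 ± 5.46 and 26.3 ± 5.95 FPKM (log2 difference -0.61; limma, adjusted p = 0.0335). CENPA lost the call without CAFS-CM replicate 1 or 2 and without CAFR-CM replicate 2 or 3 (adjusted p = 0.0695 to 0.102 from limma), and 1 of the 6 genes was lower without each of these libraries.

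The sample-by-sample pattern of H2AX was compared, as a description, with that of 7244 named genes with a mean of at least 10 FPKM, by Pearson's r of log2(FPKM + 1) over the 6 samples. The 3 most alike were PPL, which encodes the cell junction protein periplakin, LRRC47 and NFKBIB, which encodes an IκB protein, with r of 0.999, 0.999 and 0.998. With so few samples from 2 groups, 762 genes had an r above 0.95. Among the members with such a level, r with H2AX was 0.970 for H1-10, 0.931 for H2AZ2, 0.924 for H3-3B, 0.729 for H2AZ1 and -0.457 for H3-3A. The points share their libraries and the difference between the groups.

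Markers of other cells were mostly low, but not all. Of 10 fibroblast markers, 4 were tested, 1 was higher after CAFR-CM and none was lower, and 7 had a mean under 1 FPKM. FAP was at 0 in every sample, COL1A2 was at 0 in 5 of 6, and DCN was at 0.03 FPKM at most, while COL3A1 was at 19.9 to 22.8 FPKM after CAFS-CM and at 21.3 to 26.7 FPKM after CAFR-CM. COL1A1, a collagen gene, was the one higher (2 were higher without CAFR-CM replicate 1), and the list summed to 41.6 to 47.5 FPKM after CAFS-CM and to 53.4 to 59.4 FPKM after CAFR-CM. Of 6 leukocyte markers, 2 were tested and none passed, and the list summed to 33.6 to 36.5 and 35.9 to 41.9 FPKM. CD68 made up most of it, at 31.6 to 34.6 and 34.3 to 39.3 FPKM, and PTPRC was at 0.01 FPKM at most. Of 5 endothelial markers, 2 were tested and 1 was higher, the receptor gene KDR, with sums of 1.55 to 1.63 and 2.09 to 2.55 FPKM. Of 6 epithelial markers, CDH1 and EPCAM were higher and KRT18 and KRT19 lower. Over all genes tested, 15.1% were higher and 11.1% lower, and nothing is read from the counts of these few markers. KDR was not called without any 1 library except CAFR-CM replicate 2, EPCAM without CAFS-CM replicate 3 or CAFR-CM replicate 1 or 3, KRT18 without CAFS-CM replicate 3, and KRT19 without any 1 CAFS-CM replicate. Their part in the variant histone results was not tested.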

How the data were processed

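RNA of 6 Panc-1 samples, 3 per group, was measured. The deposited table holds FPKM values for each gene in each sample, which the authors had scaled by transcript length and library total. They filtered the reads with SOAPnuke, aligned them to GRCh38.p13 by HISAT2 (version 2.0.4) and estimated gene levels by RSEM (version 1.2.12). The processing notes also name Bowtie2 (version 2.2.5). No source used here gives the annotation or how counting treated strand. Of 97767 rows, 55272 circular RNA rows hold no value and were not used.

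Genes above 0.1 FPKM in 3 or more samples (23608) entered a limma fit of log2(FPKM + 1) with trend (limma 3.58.1 in R 4.3.3). P-values were adjusted by Benjamini-Hochberg over all of them and called below 0.05, and the fit was tested on simulated data. The depth per sample is not known. Alternatives were a pseudocount of 0.1, no filter, a mean of at least 1 FPKM, equal FPKM totals, cyclic loess, no trend, a replicate block and leaving out each sample. Motifs were searched in RefSeq promoters (GRCh38.p14) and GENCODE v44 transcripts, and shared stretches were found with BLAST (version 2.17.0). The members and 11 gene lists were chosen with earlier results of these data known. Beside the members, the text names, per list, at most 4 called genes by smallest adjusted p (mean of at least 1 FPKM), 12 genes fixed by name and the 3 most like H2AX. Not every gene that this rule takes is reported here. NAP1L1, BRCA1, CHEK1, CHEK2, CDT1, FEN1, H2AC14, H3C12, H3C14, H3P6, H2AB2, H2AB3, H2BC6, KRT7, CD68, PTPRC, COL3A1, COL1A2, DCN and FAP were named after their values were seen.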

Additional observations from a re-analysis of the deposited data

How the results depend on the processing

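Over 13 alternatives, H2AX, H1-10 and H2AZ2 stayed lower and past the threshold. H2AZ1 and H3-3B stayed lower but were not called with no filter on low values (log2 fold changes of -0.26 and -0.25, adjusted p = 0.0673 and 0.0545 from limma), with no trend (-0.26 and -0.25, adjusted p = 0.0575 and 0.0515) and with cyclic loess (-0.14 and -0.14, adjusted p = 0.203 and 0.177). H2AZ1 was not called with equal FPKM totals (-0.28, adjusted p = 0.0538), and H2AJ was called with cyclic loess alone (-0.29). So 3 members were lower with no filter and with no trend. Cyclic loess moved the median log2 fold change of genes of at least 10 FPKM from -0.05 to -1.27e-04. With it H2AX was at -0.59, H1-10 at -0.41, H2AZ2 at -0.23 and H3-3A at 0.13, each higher than in the main fit.

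Without 1 library, log2 fold changes ranged from -0.76 to -0.64 for H2AX, -0.59 to -0.44 for H1-10, -0.33 to -0.29 for H2AZ2, -0.30 to -0.19 for H2AZ1, -0.32 to -0.20 for H3-3B and -0.24 to -0.16 for H2AJ. H3-3A ranged from -0.0032, without CAFR-CM replicate 2, to 0.0722. Between 3 and 5 members were lower. Over all genes, 2330 to 3328 were higher and 1799 to 2405 lower, with the fewest higher without CAFS-CM replicate 2. The H2A.Z list had 7 to 10 lower and 0 to 1 higher, the H2AX list 6 to 8 and 0 to 1, the H3.3 list 8 to 10 and 0 to 1, the processing list 3 to 5 lower, the replication-dependent histones 32 to 46 and the other variants 1 to 2.

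Other variants numbered 1 lower with no filter and with cyclic loess. The H2A.Z list had 0 higher with equal totals and with no trend, the H2AX list 0 higher with no filter, replicate block, equal totals or no trend, and the processing list 1 higher with cyclic loess. Whether samples with the same replicate number were paired is not known. The correlations of their deviations from the group means were 0.0452, -0.0305 and 0.0949. With so few samples per group the deviations constrain each other, so these values cannot settle it. With the replicate block H2AX was at -0.71 (adjusted p = 0.00153 from limma), and it changed no call of a member. The cause of these changes was not tested.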
